A study of Mus musculus with 9 samples.

Results

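The genes described here encode cytosolic and mitochondrial heat-shock proteins and 1 co-chaperone: Hspa1a, Hspa1b, Hspa8, Hsph1, Dnajb1, Hsp90aa1, Hsp90ab1, Hspd1, Hspe1 and Bag3. They were found by gene name in the deposited count table, and all 10 were among its 20627 features. Of these 10 genes, 9 had enough counts to be tested, among 13311 genes tested in all, and Hspa1a did not. The cells were RAW264.7, an immortal line of mouse macrophages, and polyadenylated RNA was sequenced in 9 libraries, 3 in each of the groups NC, HG and HG-SIG. HG cells were kept for 6 h in 35 mmol/l glucose. HG-SIG cells had sitagliptin phosphate, an inhibitor of dipeptidyl peptidase 4 used as a glucose-lowering drug, added to that glucose over the same time. NC served as the control; neither its glucose concentration and time nor the dose of sitagliptin is stated in the labels. All samples carry the same cell line and batch label, and no osmotic control or sitagliptin alone was analysed here. The comparisons ask how macrophages respond to high glucose and whether sitagliptin alters that response.

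Heat-shock proteins are molecular chaperones. HSP70 proteins bind exposed hydrophobic stretches of unfolded proteins in cycles of ATP hydrolysis, which J-domain proteins such as Dnajb1 start and exchange factors such as Hsph1 and Bag3 complete, and HSP90 takes over kinases, receptors and other clients at a later stage of folding. In mitochondria the HSP60 ring with its HSP10 lid folds imported proteins. Many of these genes are targets of the transcription factor HSF1, which is released from chaperones when unfolded proteins accumulate and binds arrays of the sequence GAA and its reverse complement TTC; constitutive members such as Hspa8 and Hsp90ab1 are abundant in unstressed cells.

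Library totals ranged from 23285821 to 31571578 counts, and the 10 genes together took 0.749% to 0.831% of them. All 10 macrophage markers examined were detected and tested, with a summed level of 11389.7 to 11842 CPM in NC, 10245 to 11040.1 CPM in HG and 5380.2 to 5487 CPM in HG-SIG, where CPM is counts brought to a common library total after scaling with TMM, a method that centres the bulk of genes between libraries. Lymphocyte, epithelial, fibroblast and endothelial markers each summed to at most 0.330 CPM in any library, and none had enough counts to be tested. With TMM scaling 10 of 10 markers were called lower in HG-SIG against HG and 9 of 10 against NC (9 and 9 with library size alone, where Fcgr1 was called higher against NC); where 9 were lower, the other was Fcgr1. In HG against NC 5 were called lower and 2 higher, by the test used below. This moved with the changes described for HG-SIG, and its part in them was not tested. In bulk RNA of 1 cell line, fewer cells expressing these markers and less of their RNA per cell cannot be told apart.

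Per kilobase of exon, the 10 genes ranged from among the most abundant to barely detected. Mean TPM over the 9 libraries, a level per length, was 2956 for Hsp90ab1 (rank 29 of 18564 genes with an exon length), 1760.4 for Hspa8 (rank 51), 1744 for Hspd1 (rank 52), 874 for Hsp90aa1 (rank 132), 362 for Hspe1 (rank 339) and 159 for Hsph1 (rank 971). Lower levels were found for Bag3 at 67.9 TPM (rank 2503), Dnajb1 at 48.6 TPM (rank 3438), Hspa1b at 12.9 TPM (rank 7592) and Hspa1a at 0.157 TPM (rank 13169). The neighbours Hspa8 and Hspd1 overlapped in their TPM over libraries, with 1680.2 to 1868 for Hspa8 and 1606 to 1929.9 for Hspd1. This depends on the exon lengths used, 4301 bases for Hspa8 and 2642 for Hspd1. In CPM, which is not corrected for length, the NC means were 2389 for Hspa8 and 1347 for Hspd1. Bag3, at 64.0 to 72.6 TPM, lay above Dnajb1, at 40.0 to 61.3 TPM, in all libraries.

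**Figure D1:**
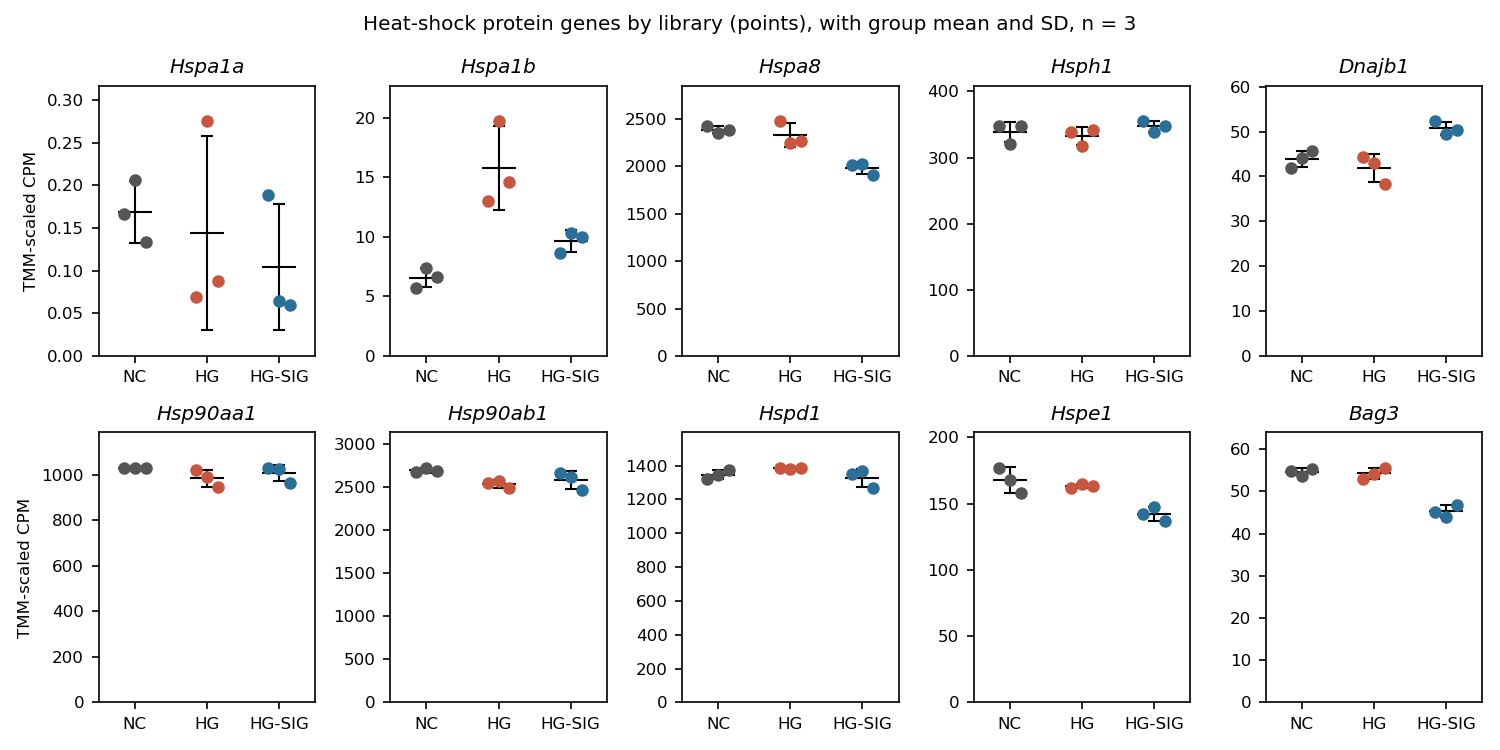
Level of each heat-shock protein gene (vertical axis, TMM-scaled CPM from 0, a separate scale per gene) in the 3 NC, 3 HG and 3 HG-SIG libraries; points are libraries and bars are the group mean and SD. Hspa1b was highest in HG and intermediate in HG-SIG, Dnajb1 was highest in HG-SIG, and Hspa8, Hspe1 and Bag3 were lowest in HG-SIG on this scale.

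In high glucose, 1 of the 9 tested genes changed: Hspa1b, which rose 2.41-fold. An adjusted p under 0.05 from edgeR's quasi-likelihood F-test, with Benjamini-Hochberg adjustment over all genes tested, was the threshold here and for every call that follows. Over all genes tested 29.5% passed in this comparison, 14.3% as higher and 15.2% as lower, so 1 of 9 was not above the background. With sitagliptin added to high glucose, 5 of the 9 passed against HG, 1 higher (Dnajb1) and 4 lower (Hspa1b, Hspa8, Hspe1, Bag3), where 52.5% of all genes passed, 25.7% higher and 26.8% lower. Against NC, HG-SIG had 5 of 9 past the threshold, 2 higher (Hspa1b, Dnajb1) and 3 lower (Hspa8, Hspe1, Bag3), where 58.6% of all genes passed, 29.9% higher and 28.7% lower. The 3 comparisons share their libraries in pairs and are not independent of each other.

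The sizes were mostly small. The median log2 fold change of the 9 genes was -0.04 in HG against NC, and for HG-SIG it was -0.06 against HG and -0.03 against NC, beside 0.00, 0.01 and 0.02 over all genes tested. Their median absolute log2 fold change was 0.04, 0.20 and 0.21 in the same order, beside 0.14, 0.22 and 0.25 over all genes. Only Hspa1b in HG against NC passed with an absolute log2 fold change over 1, a criterion that 2.85% of all genes met in that comparison; for HG-SIG the criterion was met by 5.30% against HG and 8.51% against NC. Groups did not overlap in CPM for 4 of the 9 genes in HG against NC, and HG-SIG did not overlap with HG for 6 and with NC for 6, where 41.7%, 58.7% and 65.9% of all genes did not overlap.

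**Figure D2:**
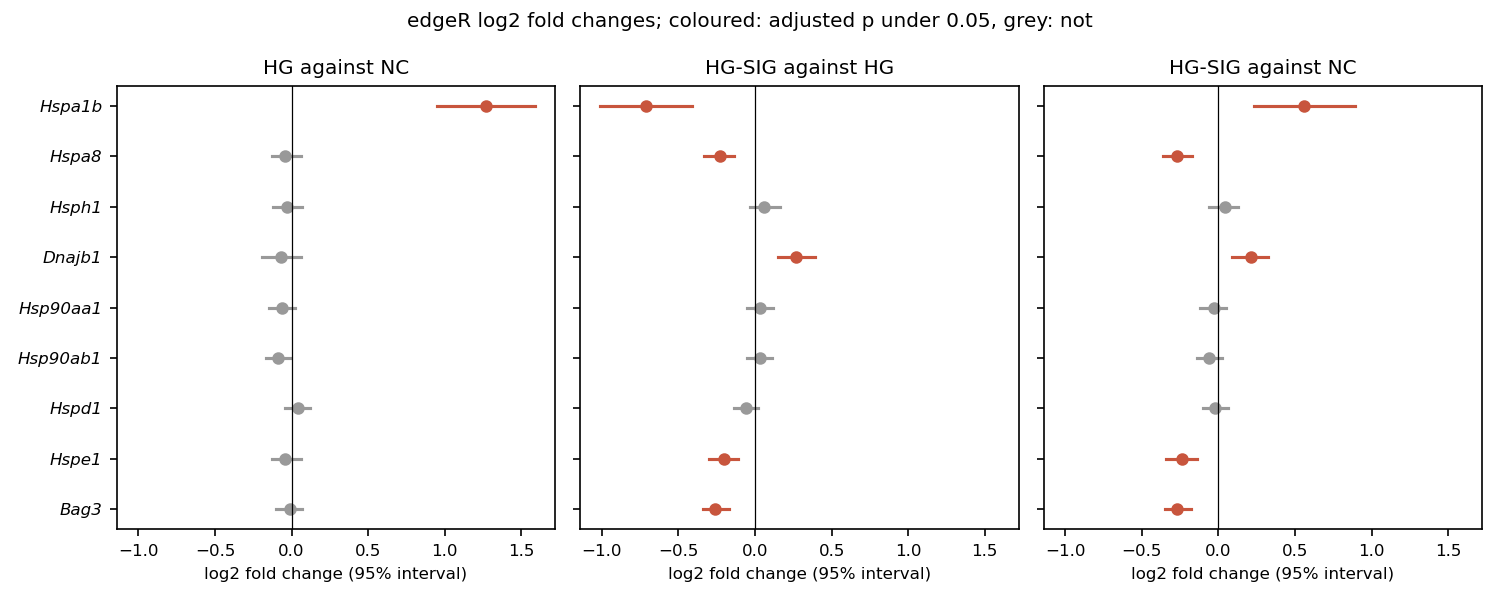
Log2 fold changes (horizontal axis) of the 9 tested genes in the 3 comparisons, with 95% intervals from edgeR; red marks an adjusted p under 0.05 and grey the rest. Hspa1b lies furthest from 0 in all 3 panels, at 1.27, -0.71 and 0.56, and the other genes lie between -0.27 and 0.27.

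The direction of the smaller changes in HG-SIG depended on scaling. TMM factors were 0.948 to 0.977 in NC and HG and 1.08 to 1.09 in HG-SIG, and with library size alone the median of all genes moved in HG-SIG to a log2 fold change of 0.17 against HG and 0.21 against NC. The share of higher genes among all calls then moved from 48.9% to 76.9% against HG and from 51.0% to 76.2% against NC. Under that scaling the 9 genes in HG-SIG split into 5 higher and 1 lower against HG, and 6 higher and 0 lower against NC. Of all 13311 genes tested, 6093 were then called higher and 1826 lower against HG, and 6786 higher and 2120 lower against NC. Relative to the median of all genes, each of the 9 genes kept nearly its value: Bag3 was at -0.27, Hspa8 at -0.24 and Hspe1 at -0.21 in HG-SIG against HG under either scaling. This holds by construction, since a change of scaling moves all genes by nearly the same amount, and it does not favour either scaling. Changes are given relative to the bulk of genes, and those that hold under both scalings are named as such.

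**Figure D3:**
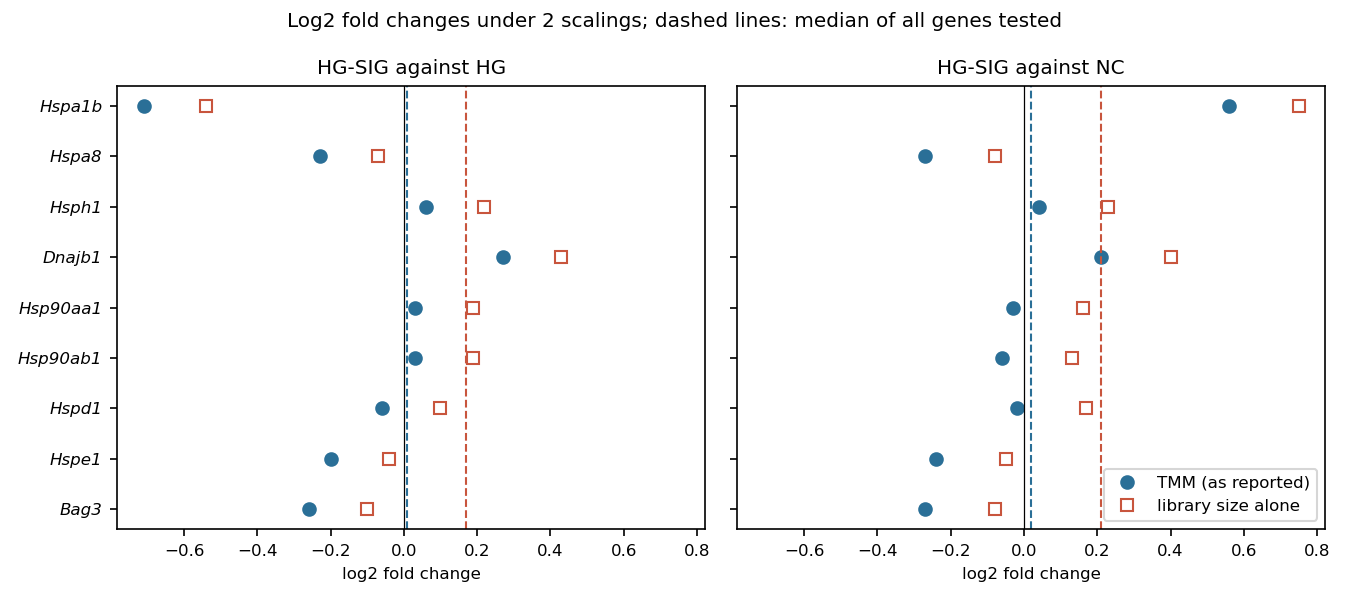
Log2 fold changes (horizontal axes) of the 9 tested genes in HG-SIG, against HG on the left and against NC on the right, under TMM scaling (filled circles) and with library size alone (open squares); dashed lines are the median of all genes tested under each. All 9 genes shift upward with the median under library size alone, and Hspa1b and Dnajb1 stay on their side of 0 under both.

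The inducible HSP70 proteins are encoded by Hspa1a and Hspa1b, near-identical single-exon genes on the minus strand of mouse chromosome 17 (mm10, GENCODE M21), Hspa1b at 34956436 to 34959238 and Hspa1a at 34969190 to 34972156. Their promoters are shown because both genes have the HSF-type sequence at the same place while their counts differed widely. The 250 bases before each start (RefSeq, GRCm38.p6) follow 5′ to 3′ on the gene's strand, with capitals for the match to GAANNTTC, a pair of inverted HSF units, 104 to 97 bases upstream of the start.
Hspa1b, chr17:34959239-34959488, minus strand: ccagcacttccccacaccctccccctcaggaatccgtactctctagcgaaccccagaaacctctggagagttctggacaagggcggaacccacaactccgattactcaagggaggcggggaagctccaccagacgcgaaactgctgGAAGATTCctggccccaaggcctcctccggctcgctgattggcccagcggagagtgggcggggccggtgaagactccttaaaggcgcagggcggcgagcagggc
Hspa1a, chr17:34972157-34972406, minus strand: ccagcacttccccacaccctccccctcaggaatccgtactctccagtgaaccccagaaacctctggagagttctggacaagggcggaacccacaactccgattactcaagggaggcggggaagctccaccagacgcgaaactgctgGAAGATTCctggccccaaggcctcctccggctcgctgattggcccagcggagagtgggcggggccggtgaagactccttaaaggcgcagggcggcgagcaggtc
The windows were 98.8% identical and differed at 3 positions, T44C, C47T and G249T, counted from 1 at the 5′ end with the base of Hspa1b first. A pair match, GAANNTTC or TTCNNGAA (each is its own reverse complement, so both strands are covered), was found in 12.8% of 32841 such windows of 250 bases over 27018 genes. Each window also held 1 CCAAT box read on the other strand as ATTGG, which 33.9% of windows held in either orientation.

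Hspa1b had 5.74, 7.35 and 6.62 CPM in the NC libraries, 13.0, 19.7 and 14.6 CPM in HG and 8.62, 10.3 and 9.99 CPM in HG-SIG, from 173 to 502 counts per library. Every HG library lay above every HG-SIG library, and every HG-SIG library above every NC library. The log2 fold change of Hspa1b was 1.27 ± 0.15 (SE, n = 3 per group, edgeR adjusted p = 3.11e-05) in HG against NC. In HG-SIG against HG Hspa1b fell by 0.71 on the log2 scale (SE 0.14, edgeR adjusted p = 0.000929), to 0.613 of its HG level. In HG-SIG against NC the log2 fold change of Hspa1b was 0.56 ± 0.15 (SE, edgeR adjusted p = 0.0066), so the level with sitagliptin stayed above that of NC. HG replicate 2 was the highest library, and without it the log2 fold changes of Hspa1b were 1.07 in HG against NC and -0.51 in HG-SIG against HG, both past the threshold. Hspa1b kept its direction and its call in all 3 comparisons under each of 19 alternatives, library size alone included.

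Only a few reads were assigned to Hspa1a, the sister gene: its counts were 5, 5 and 4 in NC, 2, 7 and 2 under HG and 6, 2 and 2 under HG-SIG. The groups overlapped. Ratios of its summed counts were scaled by library size alone, without TMM, and given 95% counting intervals. On that scale Hspa1a was at 0.878 (0.361 to 2.08) in HG against NC. In HG-SIG it was at 0.812 (0.309 to 2.11) against HG and at 0.712 (0.283 to 1.72) against NC. The TMM-scaled 2.41-fold change of Hspa1b in HG against NC lies above the upper end of the Hspa1a interval, 2.08, which covers counting error only. The 95% interval of Hspa1b itself, 0.95 to 1.59 on the log2 scale, overlaps that of Hspa1a. A difference between the responses of these genes was not tested. The split of reads between these genes is uncertain: of the 100-base windows of Hspa1b transcripts, 49.9% also occur in Hspa1a, and the share of the counts of either gene that came from such stretches is not known from the counts. Exons of Hspa1a also overlap the antisense gene Gm20481 over 19% of their length, and no source used here gives the strand setting of the counting. With both genes summed to 1 feature, the log2 fold change was 1.24 in HG against NC, and in HG-SIG -0.70 against HG and 0.54 against NC, all past the threshold.

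By the likeness of log2 CPM over the 9 libraries, the genes closest to Hspa1b among 9726 candidates were Dclre1b, a nuclease that protects telomere ends (Pearson r 0.991), Pitpnb, a phosphatidylinositol transfer protein (0.987), Lrrc75a (0.986), Slc6a12, a transporter of the osmolyte betaine (0.979), and Stx2, a syntaxin of membrane fusion (0.975). These values mostly reflect the 3 group means and are a description of 9 libraries. Slc6a12 had 174 ± 17.2 CPM in NC, 371 ± 43.8 under HG and 264 ± 28.0 under HG-SIG (SD, n = 3). Dclre1b moved over a narrower range, at 56.8 ± 1.26, 72.0 ± 3.52 and 61.9 ± 1.56 CPM in the same order.

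Hspa8, the constitutive HSP70 that also strips clathrin from vesicles and carries proteins into chaperone-mediated autophagy, lies on the plus strand of chromosome 9 at 40800984 to 40810087. Its CPM was 2429, 2350.3 and 2388 in NC, 2477, 2252 and 2266 under HG and 2019, 2026 and 1912 under HG-SIG. NC and HG overlapped, and all HG-SIG libraries lay below both. The log2 fold change of Hspa8 was -0.04 (95% interval -0.13 to 0.06, adjusted p = 0.586) in HG against NC, and in HG-SIG it was -0.23 ± 0.04 (SE, adjusted p = 0.000628) against HG and -0.27 ± 0.04 (SE, adjusted p = 0.000159) against NC. On library size alone, Hspa8 was at -0.07 (adjusted p = 0.163) and -0.08 (adjusted p = 0.124) in the comparisons with HG-SIG and was not called. Of its 100-base transcript windows 28.2% occur in 7 other genes, none of which has a row in the count table, and the small nucleolar RNA genes Snord14c, Snord14d and Snord14e overlap 6.09% of its exon length.

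The ratio of inducible to constitutive HSP70, Hspa1a plus Hspa1b to Hspa8 in counts per kilobase of exon, needs no scaling between libraries. It was 0.00373, 0.00492 and 0.00434 in NC, 0.00808, 0.0136 and 0.00998 under HG and 0.00668, 0.00788 and 0.00807 under HG-SIG. All HG libraries lay above all NC libraries, and so did all HG-SIG libraries. HG, at 0.0106 ± 0.00280 (SD, n = 3), and HG-SIG, at 0.00754 ± 0.000750, did not overlap, though the lowest HG value of 0.00808 was next to the highest HG-SIG value of 0.00807.

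**Figure D4:**
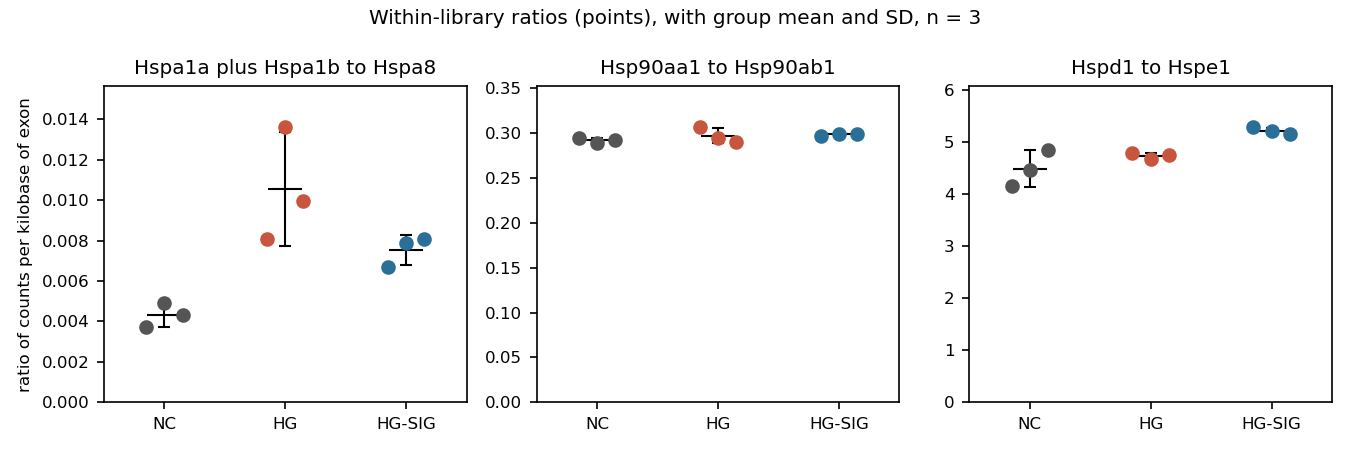
Within-library ratios of heat-shock protein genes in counts per kilobase of exon (vertical axes, from 0) for NC, HG and HG-SIG; points are libraries and bars the group mean and SD, n = 3. The mean HSP70 ratio is 0.00433 in NC, 0.0106 under HG and 0.00754 under HG-SIG, the HSP90 ratio lies between 0.288 and 0.306 in all libraries, and the ratio of Hspd1 to Hspe1 is highest in HG-SIG.

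Hsph1 encodes HSP110, an exchange factor for HSP70 that also takes part in dissolving protein aggregates. It lies on the minus strand of chromosome 5 at 149614287 to 149636376. A pair match is found here too, TTCNNGAA in capitals, 54 to 47 bases upstream of 1 RefSeq start and 33 to 26 bases upstream of the other. It lies within the gene as GENCODE annotates it, so it is shown with few flanking bases.
Hsph1, chr5:149636351-149636380, minus strand: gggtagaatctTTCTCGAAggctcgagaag
Hsph1 had 347, 321 and 348 CPM in NC, 338, 317 and 342 under HG and 355, 339 and 348 under HG-SIG, and the groups overlapped. Its log2 fold change was -0.03 (95% interval -0.12 to 0.07, adjusted p = 0.682) in HG against NC, and in HG-SIG it was 0.06 (-0.03 to 0.16, adjusted p = 0.246) against HG and 0.04 (-0.06 to 0.13, adjusted p = 0.511) against NC. Hsph1 was, with library size alone, called higher in HG-SIG, at 0.22 against HG and 0.23 against NC.

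Dnajb1 encodes HSP40, the J-domain partner that stimulates the ATPase of HSP70, and lies on the plus strand of chromosome 8 at 83608193 to 83612653. It had 41.9, 44.2 and 45.6 CPM in NC, 44.3, 43.0 and 38.3 under HG and 52.3, 49.5 and 50.3 under HG-SIG. NC and HG overlapped, and every HG-SIG library lay above all others. The log2 fold change of Dnajb1 was -0.07 ± 0.06 (SE, adjusted p = 0.42) in HG against NC, and in HG-SIG it was 0.27 ± 0.05 (SE, adjusted p = 0.00116) against HG and 0.21 ± 0.05 (SE, adjusted p = 0.0056) against NC. Dnajb1 was higher in HG-SIG under all 19 alternatives, with 0.43 and 0.40 under library size alone. Hspa1b and Dnajb1 thus moved in opposite directions between HG and HG-SIG. The windows examined for Dnajb1 held no match to the HSF pair. That at 83608298 to 83608547 lies within the gene as GENCODE annotates it.

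Bag3, a co-chaperone that releases substrate from HSP70 and routes it to selective autophagy, lies on the plus strand of chromosome 7 at 128523616 to 128546981. Its CPM was 54.8, 53.7 and 55.4 in NC, 52.9, 54.2 and 55.6 under HG and 45.2, 44.0 and 46.7 under HG-SIG. NC and HG overlapped, and all HG-SIG libraries were lower. Bag3 had a log2 fold change of -0.01 (95% interval -0.10 to 0.07, adjusted p = 0.853) in HG against NC, and in HG-SIG it was -0.26 ± 0.04 (SE, adjusted p = 0.000143) against HG and -0.27 ± 0.04 (SE, adjusted p = 6.75e-05) against NC. Under library size alone it was at -0.10 (adjusted p = 0.0578) and -0.08 (adjusted p = 0.103) and was not called. No HSF pair was found in its window.

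The HSP90 proteins of the cytosol are encoded by Hsp90aa1, the more inducible form, on chromosome 12 at 110690605 to 110702728, and Hsp90ab1, the constitutive form, on chromosome 17 at 45567775 to 45573271, both on the minus strand. Hsp90aa1 had 1032, 1029 and 1029.7 CPM in NC, 1021, 989.9 and 947 under HG and 1032, 1025 and 966 under HG-SIG. Hsp90ab1 had 2673, 2725 and 2686 CPM in NC, 2544, 2573 and 2487 under HG and 2660.4, 2616 and 2468 under HG-SIG. For both genes all HG libraries lay below all NC libraries, by little.

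Neither HSP90 gene passed the test in any comparison. In HG against NC the log2 fold change was -0.06 (95% interval -0.15 to 0.02, adjusted p = 0.258) for Hsp90aa1 and -0.09 (-0.17 to -0.01, adjusted p = 0.0894) for Hsp90ab1. DESeq2 called Hsp90ab1 lower, at -0.09 with an adjusted p of 0.0415. In HG-SIG against HG both were at 0.03, with intervals of -0.05 to 0.12 for Hsp90aa1 and -0.05 to 0.11 for Hsp90ab1. Both were called higher in that comparison with library size alone, each at 0.19. Against NC, HG-SIG had -0.03 (-0.12 to 0.05, adjusted p = 0.511) for Hsp90aa1 and -0.06 (-0.14 to 0.02, adjusted p = 0.166) for Hsp90ab1, which turned to 0.16 and 0.13, both called higher, with library size alone. The ratio of Hsp90aa1 to Hsp90ab1 per kilobase was 0.292 ± 0.00321 in NC, 0.297 ± 0.00835 under HG and 0.298 ± 0.00161 under HG-SIG (SD, n = 3), and stayed between 0.288 and 0.306 in the 9 libraries. Of the 100-base windows of Hsp90aa1 transcripts 38% occur in 3 other genes with no row in the count table, and no such window was found for Hsp90ab1.

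The mitochondrial chaperonin is encoded by a divergent gene pair on chromosome 1, Hspd1 (HSP60, minus strand, 55077835 to 55088243) and Hspe1 (HSP10, plus strand, 55088132 to 55091307). Between the Hspe1 start and 1 of the RefSeq starts of Hspd1, 3 overlapping matches to the HSF pair are shown in capitals, on the plus strand, because they are upstream of both of these starts. By the GENCODE limits given above they lie within Hspd1, whose other RefSeq start is at 55088243.
Hspd1-Hspe1, chr1:55088053-55088082, plus strand: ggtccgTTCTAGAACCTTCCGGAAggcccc
The matches lie 89 to 72 bases upstream of the RefSeq Hspe1 start at 55088148 and 144 to 127 bases upstream of the Hspd1 start at 55087932, and form 2 triplets of HSF units, which are GAANNTTC extended by NNGAA, or TTCNNGAA extended by NNTTC, on either strand. Such a triplet was found in 0.466% of the 32841 windows and in 0.514% of genes. A further RefSeq start of Hspd1 had no match in its own window.

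Hspd1 had 1324, 1342 and 1374 CPM in NC, 1388, 1381 and 1388 under HG and 1348, 1369 and 1268 under HG-SIG. Its HG libraries lay above all others by a narrow margin. No comparison of Hspd1 passed. Its log2 fold change was 0.04 (95% interval -0.04 to 0.12, adjusted p = 0.443) in HG against NC, and in HG-SIG it was -0.06 (-0.14 to 0.02, adjusted p = 0.181) against HG and -0.02 (-0.10 to 0.06, adjusted p = 0.664) against NC. Hspd1 was called higher under library size alone in HG-SIG, at 0.10 against HG and 0.17 against NC.

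Hspe1 had 177, 168 and 158 CPM in NC, 162, 165 and 163 under HG and 142, 147 and 137 under HG-SIG. NC and HG overlapped, and all HG-SIG libraries were lower. Its log2 fold change was -0.04 (95% interval -0.13 to 0.06, adjusted p = 0.564) in HG against NC, and in HG-SIG it was -0.20 ± 0.04 (SE, adjusted p = 0.00211) against HG and -0.24 ± 0.04 (SE, adjusted p = 0.000473) against NC. Scaled by library size alone, Hspe1 was at -0.04 (adjusted p = 0.452) and -0.05 (adjusted p = 0.335) and was not called.

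The ratio of Hspd1 to Hspe1 within a library, per kilobase of exon, was 4.16, 4.47 and 4.86 in NC, 4.79, 4.68 and 4.75 under HG and 5.29, 5.21 and 5.16 under HG-SIG. All HG-SIG libraries lay above all others, while NC and HG overlapped. The means were 4.50 ± 0.350, 4.74 ± 0.0549 and 5.22 ± 0.0620 (SD, n = 3), and this order needs no scaling between libraries. The genes overlap at their starts, over 4.24% of the exons of Hspd1 and 7.6% of those of Hspe1, and 23.4% of the transcript windows of Hspd1 and 10% of those of Hspe1 occur in other genes.

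**Figure D5:**
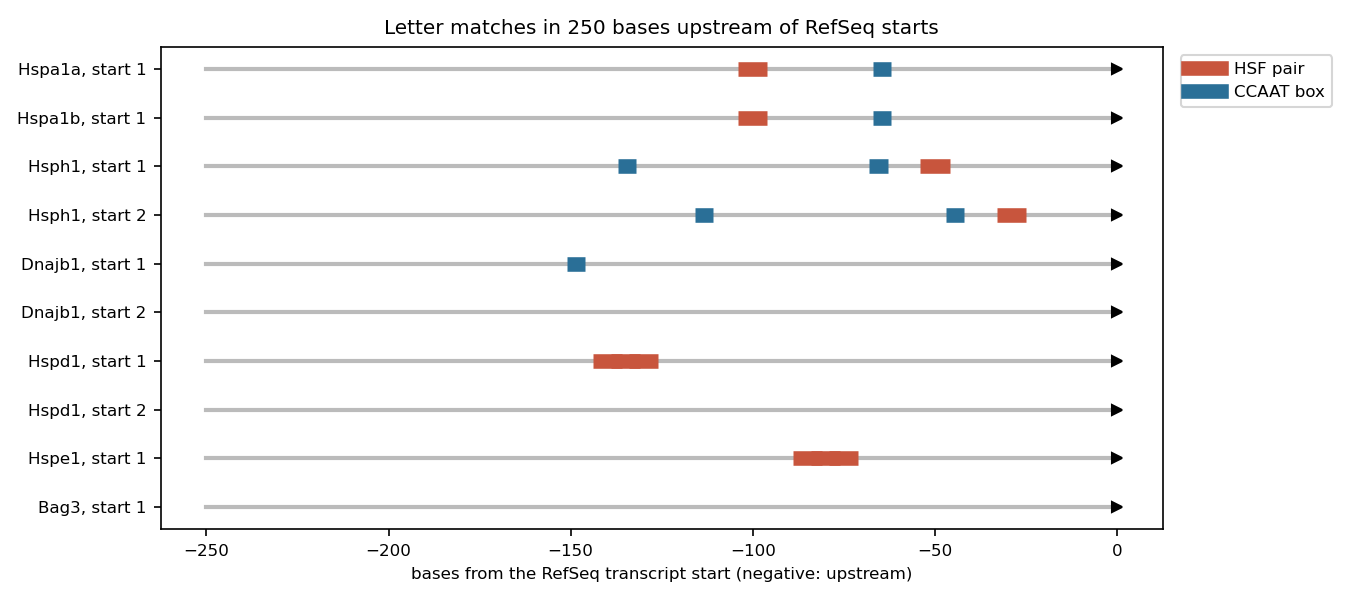
Position of matches to the HSF pair (red) and the CCAAT box (blue) in the 250 bases before each RefSeq start (horizontal axis, bases from the start, negative upstream) of the 7 heat-shock protein genes with an entry. Hspa1a and Hspa1b have 1 pair at the same distance, each Hsph1 window has 1, Hspe1 and 1 of the Hspd1 starts share 3 overlapping pairs, and Dnajb1 and Bag3 have no pair.

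Windows were found for 7 of the 10 genes, and none for Hspa8, Hsp90aa1 and Hsp90ab1. A match is a description of letters in a window, and with or without one, which genes were called in HG-SIG depended on scaling for each tested gene but Hspa1b and Dnajb1.

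Other chaperone genes were examined as lists of 94 genes, of which 90 were in the table and 82 were tested. In HG against NC 11 were called higher and 11 lower, 13.4% in each direction. In HG-SIG, 13 higher and 25 lower calls were made against HG, 15.9% and 30.5%, and 18 higher and 24 lower against NC, 22.0% and 29.3%. Set beside the percentages of all genes given above, which used TMM, these shares are a description. With library size alone the calls in HG-SIG became 38 higher and 4 lower of 82 against HG, where 6093 of 13311 genes were higher and 1826 lower. Against NC they became 51 higher and 6 lower, where 6786 of 13311 genes were higher and 2120 lower. The median log2 fold change over the 82 genes was 0.01 in HG against NC and -0.04 in both comparisons with HG-SIG. Where counts of HG-SIG with library size alone follow for single lists, the numbers of all genes given in this paragraph are their background. Sizes by which these genes rose or fell are log2 fold changes from the same edgeR test.

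Among HSF factors and HSF-binding proteins, 3 of 5 were tested, and none passed in HG against NC or, with TMM scaling, in HG-SIG against HG, where all 3 were higher with library size alone. Hsf1, the heat-shock factor itself, had 45.4 ± 0.391 CPM in NC, 47.8 ± 0.487 under HG and 48.8 ± 1.22 under HG-SIG (SD, n = 3), and Hsbp1, which binds HSF1, had 66.8 ± 1.88, 71.8 ± 3.11 and 73.0 ± 5.06. In HG-SIG against NC both passed, Hsf1 at 0.10 (adjusted p = 0.0282) and Hsbp1 at 0.13 (adjusted p = 0.0476), though 0 of the 3 passed with RLE scaling or DESeq2. With library size alone all 3 were called higher in that comparison, Hsf1 at 0.29 and Hsbp1 at 0.32.

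Of the 8 other HSP70 and HSP110 genes tested, 1 rose in HG against NC, and in HG-SIG 3 rose and 1 fell against HG and 2 rose against NC. With library size alone 3 rose against HG, 6 rose against NC and none fell, and with DESeq2 none passed in HG against NC. Hspa4l, of the HSP110 family, rose from 55.2 ± 5.86 CPM in HG to 85.1 ± 3.20 in HG-SIG, a log2 fold change of 0.63 (adjusted p = 4.26e-06), with 51.5 ± 1.72 in NC. Hspa14, a ribosome-associated HSP70, rose by 0.20 in the same comparison (adjusted p = 0.00203). Both were also called higher with library size alone, at 0.79 and 0.36.

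Among 15 J-domain genes tested, 2 rose and 3 fell in HG against NC, and in HG-SIG 4 rose and 2 fell against HG and 6 rose and 1 fell against NC, or 10 and 1, and 12 and 0, with library size alone. Dnajb14 had 43.4 ± 1.17 CPM in NC, 54.3 ± 1.34 under HG and 44.4 ± 1.77 under HG-SIG, so that it rose by 0.32 in HG against NC (adjusted p = 9.67e-05) and fell by 0.29 in HG-SIG against HG (adjusted p = 0.00011). Dnajb2 went the other way, at 10.6 ± 0.512, 8.41 ± 0.400 and 12.7 ± 0.804 CPM, with log2 fold changes of -0.34 (adjusted p = 0.00586) and 0.60 (adjusted p = 3.05e-05). Both kept their direction and call in these comparisons with library size alone, where the fall of Dnajb14 in HG-SIG shrank to -0.13 (edgeR adjusted p = 0.025). With limma on log2(TPM + 1) that fall was at -0.08 and not called (adjusted p = 0.261), while Dnajb2 stayed called in both comparisons.

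For the HSP70 exchange factors and other BAG genes, 8 were tested, with 3 higher and 0 lower in HG against NC, and in HG-SIG 0 higher and 3 lower against HG, which turned to 2 higher and 0 lower with library size alone, and 2 in each direction against NC, or 5 and 0. Hspbp1, an exchange factor, fell by 0.22 in HG-SIG against HG (adjusted p = 0.000925), and St13, which stabilises HSP70 bound to substrate, fell by 0.21 (adjusted p = 0.00055). Neither was called with library size alone, at -0.06 and -0.05.

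HSP90 co-chaperones were called in both directions, 2 higher and 2 lower of 18 in HG against NC, and in HG-SIG 4 and 4 against HG and 4 higher and 3 lower against NC, or 10 and 0, and 15 and 1, with library size alone. Cdc37, which brings kinases to HSP90, fell by 0.15 in HG against NC (adjusted p = 0.014) and by 0.22 in HG-SIG against HG (adjusted p = 0.000647), the latter not called with library size alone, at -0.05. Unc45a, a co-chaperone that folds myosin, rose by 0.37 in HG-SIG against HG (adjusted p = 1.96e-05) and was at 0.53 with library size alone.

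The chaperonin of the cytosol, TRiC, which folds actin and tubulin, had 8 of its 9 listed subunit genes tested. In HG against NC 1 was called lower, Cct2 at -0.14 (named after its value was seen). In HG-SIG all 8 were called lower against NC, with a median log2 fold change of -0.16, and 5 were called lower against HG. On library size alone 0 were lower, with 1 higher against NC and 2 higher against HG, so this direction holds only relative to the bulk of genes. Cct3 had 787 ± 20.7 CPM in NC and 685 ± 21.2 in HG-SIG, and Cct7 had 504 ± 13.6 and 435 ± 12.9. Prefoldin, which passes unfolded actin and tubulin to TRiC, had 2 of 6 tested genes lower in HG against NC, Pfdn5 at -0.15 among them, and in HG-SIG 3 lower against HG and 4 lower against NC, where Pfdn5 was at -0.38 and Pfdn1 at -0.18. Under library size alone 1 prefoldin gene was lower in HG against NC, and in HG-SIG 2 were higher and 0 lower against HG, and 1 was higher and 1 lower (Pfdn5, at -0.19) against NC.

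Other mitochondrial chaperones and proteases had, of 13 tested, 2 higher and 2 lower in HG against NC, and in HG-SIG 2 higher and 6 lower against HG and 2 higher and 5 lower against NC, or 5 and 2, and 7 and 3, with library size alone. Htra2, a serine protease of the intermembrane space, fell from 99.7 ± 3.03 CPM in HG to 66.6 ± 1.67 in HG-SIG (log2 fold change -0.58, adjusted p = 6.07e-08), and was at -0.42 with library size alone. Lonp1, the protease of the matrix, fell by 0.18 in HG against NC (adjusted p = 0.00155) and by 0.34 in HG-SIG against NC (adjusted p = 2.13e-06), which became -0.15 with library size alone, and its fall of 0.16 in HG-SIG against HG was then at 0.00 and not called. It had 155 ± 2.79, 137 ± 3.11 and 123 ± 0.999 CPM in NC, HG and HG-SIG.

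Small heat-shock proteins, which hold unfolded proteins without ATP, were mostly low, and 3 of 10 were tested. Hspb7 had 6.56 ± 0.773 CPM in NC, 3.93 ± 0.465 under HG and 1.07 ± 0.186 under HG-SIG, with log2 fold changes of -0.74 (adjusted p = 0.00104) in HG against NC and -1.87 (adjusted p = 1.65e-06) in HG-SIG against HG, and -0.71 and -1.71 with library size alone. Hspb6 rose by 0.35 in HG against NC (adjusted p = 0.0292), from 4.54 ± 0.403 to 5.78 ± 0.689 CPM, and was not called with DESeq2 (adjusted p = 0.0855).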

How the data were processed

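Polyadenylated RNA of 9 libraries, 3 per group, was sequenced, with groups and replicate numbers from the sample titles. The deposited values were gene counts, for which the submitters' processing notes name Bowtie2 2.3.5, RSEM and build mm10; the strand setting, read length and annotation release are not stated there. All were whole numbers and were tested as deposited. Unannotated loci, 1996 of 20627 features, held 5.85% to 6.21% of each library's counts and stayed in the tests.

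Counts were filtered with filterByExpr by group, scaled with TMM and fitted together with edgeR 4.0.16 (R 4.3.3), each group having its own mean, with 6 residual degrees of freedom. Quasi-likelihood F-tests were adjusted with the Benjamini-Hochberg method over 13311 genes and called at an adjusted p under 0.05. A standard error is the absolute log2 fold change over the root of F. DESeq2 1.42.0, limma 3.58.1 (voom, and log2(TPM + 1) with a pseudocount of 1), other scalings and filters and leaving out each library were alternatives. TPM used the union of exons in GENCODE M21 (GRCm38, the assembly of mm10), found for 18564 identifiers. Promoter windows came from RefSeq, GRCm38.p6.

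The genes and lists were chosen with earlier results of these data known. All 10 members are described; of each other chaperone list the 2 genes with the lowest p in any comparison are named, and for likeness the 5 genes with the highest Pearson r among those with an average log2 CPM of at least 2. Counting intervals are at 95% and leave out PCR duplicates, so they hold for counting error only. Whether replicates came from separate cultures is not stated in the labels; the p-values may then reflect technical spread between samples only. Same-numbered libraries of HG and HG-SIG deviated together, with correlations of 0.12, 0.11 and 0.22 for numbers 1, 2 and 3, from the data and not from the labels; a replicate block changed no call of a member in that comparison.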

Additional observations from a re-analysis of the deposited data

How the results depend on the processing

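Over the 27 log2 fold changes of the 9 tested genes, 454 of 459 values under the alternatives other than library size and TPM kept their direction and side of the threshold, 2 gained the call and 3 changed sign near 0. With library size alone or limma on log2(TPM + 1), 24 of 54 kept both, 12 lost the call, 8 gained it with the same sign and 10 changed sign, of which 8 were then called; the median of all genes reached 0.21 and 0.23 in HG-SIG against NC, and the share of higher calls moved in HG against NC from 48.4% to 58.9% with library size and 59.2% with TPM, and in HG-SIG from 48.9% to 76.9% and 81.9% against HG and from 51.0% to 76.2% and 80.2% against NC. The members called higher and lower in HG-SIG were then 5 and 1 against HG and 6 and 0 against NC, under both. Over all genes, 6093 and 1826 of 13311 were called against HG with library size, and 6626 and 1466 of 12099 with TPM. Against NC these were 6786 and 2120 with library size, and 7095 and 1753 with TPM. Sign changes with library size and with TPM were Bag3 in HG against NC (0.02 and 0.02), Hspd1 in HG-SIG against HG (0.10 and 0.14), and in HG-SIG against NC Hsp90aa1 (0.16 and 0.20), Hsp90ab1 (0.13 and 0.17) and Hspd1 (0.17 and 0.22). Leaving out 1 library gave -0.07 to 0.01 for Hsph1 and -0.03 to 0.01 for Bag3 in HG against NC, and -0.04 to 0.01 for Hspd1 in HG-SIG against NC. In HG against NC 1 member was called lower with DESeq2 and 1 with the replicate block, in both Hsp90ab1 at -0.09 (adjusted p = 0.0415 and 0.0289); the cause was not tested. The block changed no other call of a member. Same-numbered libraries correlated at 0.07 to 0.14 in HG against NC and 0.05 to 0.08 in HG-SIG against NC. Each HG library correlated best with its own number among NC, and each HG-SIG library with its own number among HG and among NC. The best match was looked for in this direction only, and it is a hint from the data and not from the design. With the block 4663 genes were called in HG against NC and 8282 in HG-SIG against NC, beside 3927 and 7801. Without the correction for exon length, the ratios in NC, HG and HG-SIG were 0.00283, 0.00688 and 0.00492 for Hspa1a plus Hspa1b to Hspa8, 0.382, 0.389 and 0.390 for Hsp90aa1 to Hsp90ab1, and 8.06, 8.50 and 9.36 for Hspd1 to Hspe1, by construction. Depth limits Hspa1a, at 2 to 7 counts per library.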
